A study of Mus musculus with 6 samples.

Results

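The autophagy machinery described here is a set of 36 genes whose products build the autophagosome, load it with cargo and join it to the lysosome. The genes were chosen by symbol from a table of 54966 features, and all 36 were present once. The measurements were made by RNA sequencing of macrophages sorted from skeletal muscle of wild-type mice 3 days after injury with barium chloride, a salt that kills muscle fibres and starts their regeneration. The sort took cells that carried CD11b, the macrophage surface antigen encoded by Adgre1 and little Ly6C, and the labels call them pro-repair macrophages. There were 3 libraries from young and 3 from old mice, and all 6 shared the genotype, the injury, the time and the gate. The labels give no age in months and do not say that the 3 libraries of a group are 3 animals. Spread within a group, and so each p-value, may therefore be technical in part.

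Macroautophagy starts when the ULK1 kinase complex activates a lipid kinase complex built on VPS34 and Beclin 1, which marks a membrane with the lipid PI3P. Lipid transfer proteins then enlarge this membrane, and ubiquitin-like conjugation systems attach proteins of the LC3 and GABARAP family to it. Cargo receptors bind the attached proteins and bring in protein aggregates, damaged organelles and bacteria, and a SNARE protein fuses the closed vesicle with the lysosome. Macrophages also use part of the machinery, including ATG7, ATG5, ATG16L1, Rubicon and UVRAG, to attach LC3 to phagosomes that hold dead cells, a process called LC3-associated phagocytosis. The measurements are of RNA and say nothing about the flux through these steps.

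All 36 genes were expressed, and 2 of them stood far above the others. Levels are in FPKM, fragments divided by gene length and by library size. Order between genes on this scale depends on the gene length used, as described for the LC3 and GABARAP family. Sqstm1, which encodes the cargo receptor p62, had 445.2, 395.6 and 405.9 FPKM in the young libraries and 533.7, 382 and 426.3 in the old, and it ranked 85 of 11108 tested genes by its mean. Gabarap, of the LC3 and GABARAP family, had 247.8, 235.4 and 237.1 FPKM in young and 238.5, 267.2 and 272.3 in old, and ranked 166. Of the others, 16 had means between 10 and 50 FPKM and 18 had means below 10 FPKM. The lowest was Optn with a mean of 1.74 FPKM, and the median of the 36 means was 10.1 FPKM against 6.67 for all tested genes. The smallest number of fragments recovered for a member in any library was 69, for Optn.

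**Figure D1:**
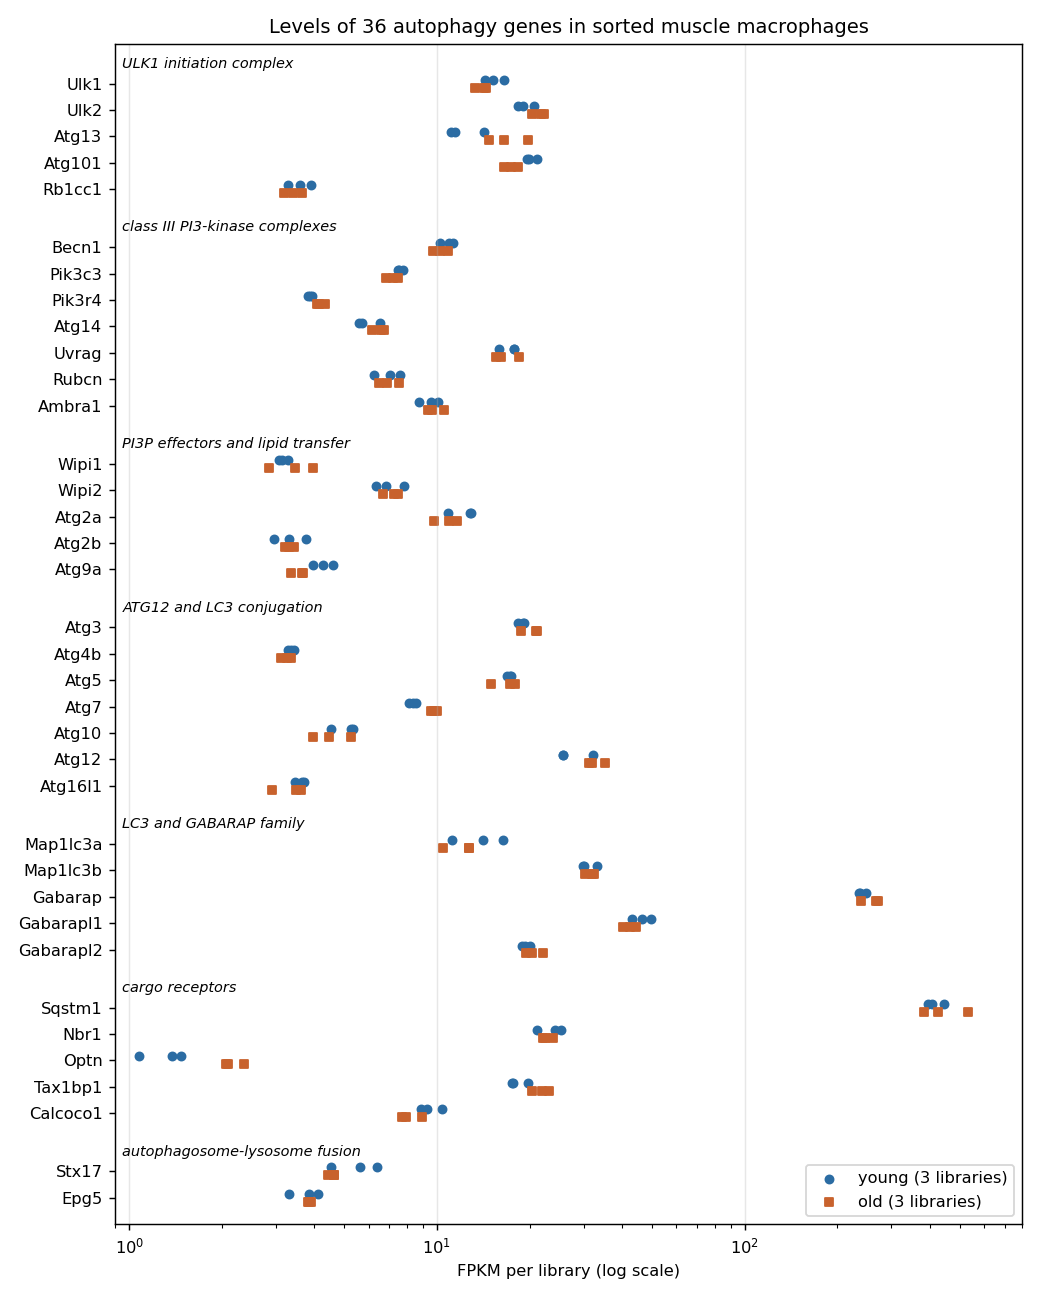
FPKM of each of the 36 genes in every library, on a log axis, with young libraries as circles and old libraries as squares, ordered by role. Sqstm1 and Gabarap lie above 100 FPKM, and for 28 genes the young and old points overlap.

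The libraries held 16543939 to 19400929 recovered fragments. Macrophage and gate markers were high in each library. The 11 on the list summed to 15550 to 18183 FPKM in young and 15796 to 19169 in old, with Lyz2 highest. Adgre1, Itgam, Cd68, Fcgr1 and C1qb were higher in each old library, as were 12.3% of all tested genes. Adgre1 had 358, 347 and 382 FPKM in young and 476, 431 and 430 in old. Itgam had 36.4, 36.9 and 34.3 in young and 50.9, 41.9 and 49.5 in old. Csf1r, Mertk, Lyz2, Cd14, C1qa and Mrc1 overlapped between the groups. Marker lists of other cells summed to much less. The 6 fibroblast markers summed to 2.96 to 5.71 FPKM in young and 1.07 to 2.31 in old. The 7 muscle fibre markers summed to 11.9 to 16.8 and 6.05 to 9.23, so both sums were lower in each old library. All of these 13 genes were above 0 in at least 1 library. Among them, Dcn, Lum, Ckm, Myh4, Tnnt3 and Mylpf overlapped between the groups. The 6 markers of Ly6C-high monocytes summed to 102.2 to 124.2 and 125.1 to 188.7 FPKM, and none was at 0 throughout. This sum was carried by Chil3, at 84.6, 50.6 and 44 FPKM in young and 65.9, 145.4 and 84.7 in old, while Ccr2, the second highest, had 26.5, 37.6 and 48.6 in young and 31.2, 22.2 and 21.4 in old, so both genes overlapped between the groups. The 6 dendritic cell markers gave 7.19 to 9.67 and 3 to 7.86 FPKM, the 6 endothelial markers 6.13 to 7.98 and 4.25 to 9.25, and the 6 neutrophil markers 34.6 to 42.6 and 39.7 to 51. Of these markers, Cd209a, Xcr1, Pecam1 and Retnlg were lower in each old library, as were 8.59% of all tested genes, and none was higher in each. The neutrophil sum came mostly from Csf3r, at a mean of 37.6 FPKM, while Ly6g was at 0 throughout. The 7 lymphocyte markers gave 1.04 to 1.48 and 0.551 to 1.3 FPKM, with Cd3e and Cd3g among those at 0 throughout. The part of these lists in the results below was not tested. In bulk RNA, fewer cells of a type and less RNA per cell cannot be told apart.

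The comparison between old and young libraries asks whether the RNA of the autophagy machinery differed with age in repair macrophages. Changes are old minus young on the log2(FPKM + 1) scale, from a limma fit over 11108 genes, and understate the change of low genes. None of the 36 genes passed limma's adjusted p threshold of 0.05 over all tested genes, against 0.018% of all tested genes higher, 0.018% lower and 0.036% in either direction. The members' adjusted p ranged from 0.172 to 0.991, and limma voom on recovered fragments also called none. At a limma unadjusted p under 0.05 there were 4 members with higher values in old, Optn, Atg13, Tax1bp1 and Atg7, and 2 with lower values, Atg101 and Atg9a. These were 11.1% and 5.56% of the members, against 8.84% of all tested genes higher and 6.18% lower. When the libraries were rescaled to TPM, the split was 3 higher (8.33%) and 5 lower (13.9%), and that of all tested genes was 4.66% higher and 10.6% lower. The young and old libraries did not overlap for 8 members, or 22.2%, against 20.9% of all tested genes. Of these, 5 members were higher in old (13.9%, against 12.3%) and 3 were lower (8.33%, against 8.59%). These shares are near those of the background.

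The members' changes were small and went in both directions. There were 18 positive and 18 negative changes, from -0.21 for Stx17 and Atg9a to 0.46 for Optn. The median was 0.00, against 0.01 for all tested genes, and the median size without sign was 0.10 against 0.11. Changes smaller than 0.25 were found for 34 members (94.4%), against 82.1% of all tested genes, and the exceptions were Optn and Atg13. The 95% limma interval lay wholly between -0.5 and 0.5 for 33 members (91.7%), against 74.1% of all tested genes. The intervals that reached further were those of Optn (0.21 to 0.71), Atg13 (0.13 to 0.74) and Map1lc3a (-0.52 to 0.15). The members also had a higher median level than all tested genes (10.1 against 6.67 FPKM) and a smaller median SE (0.081 against 0.099). The part of level and SE in these shares was not tested.

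**Figure D2:**
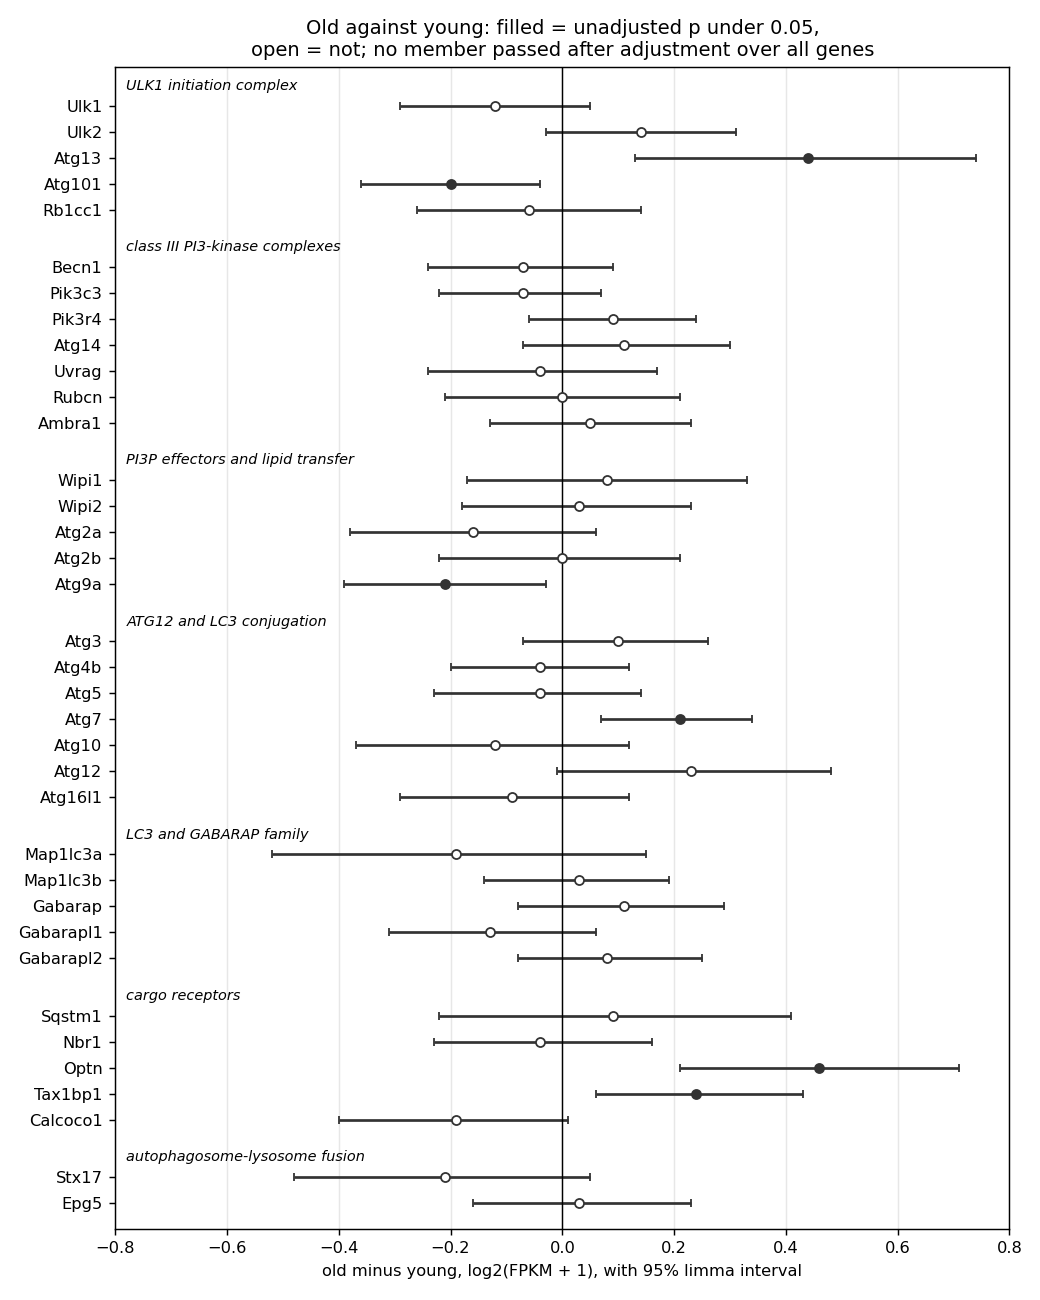
Old minus young change of each of the 36 genes on the log2(FPKM + 1) scale, as a point with its 95% limma interval, filled where the unadjusted p was under 0.05. Optn (0.46) and Atg13 (0.44) lie furthest to the right, and the other changes lie between -0.21 and 0.24.

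**Figure D3:**
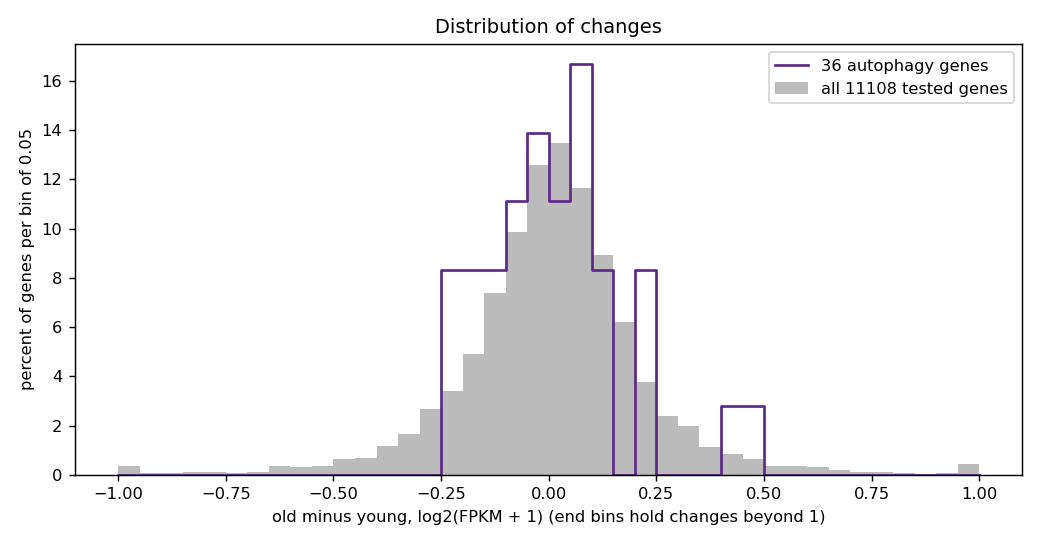
Share of genes in each bin of change on the log2(FPKM + 1) scale, for all 11108 tested genes (grey bars) and the 36 autophagy genes (line). Both distributions centre near 0, and the autophagy genes reach from -0.21 to 0.46.

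The ULK1 complex joins a kinase, ULK1 or its paralogue ULK2, to the adaptor ATG13, the ATG13-binding protein ATG101 and the scaffold FIP200, encoded by Rb1cc1. Atg13 (chromosome 2, 91674618 to 91710576, GRCm38) had 14.3, 11.5 and 11.1 FPKM in young and 16.5, 14.7 and 19.7 in old. Atg101 (chromosome 15, 101284272 to 101290945) had 21.2, 19.6 and 20 FPKM in young and 16.6, 17.4 and 18.4 in old. The groups did not overlap for either gene, with Atg13 above young in each old library and Atg101 below, and young replicate 1 was the young library nearest to the old ones for Atg13. The change of Atg13 was 0.44 (SE 0.13, limma unadjusted p = 0.0124, adjusted p = 0.217), and that of Atg101 was -0.20 (SE 0.067, limma unadjusted p = 0.0195, adjusted p = 0.248). For Atg101, limma's unadjusted p was 0.0605 without old replicate 1 and 0.0579 without young replicate 1.

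Ulk2, which had the highest FPKM of the 5 genes, had 19.1, 18.3 and 20.7 FPKM in young and 20.4, 22.3 and 21.7 in old, so its groups overlapped, with a change of 0.14. Ulk1 had 15.2, 14.3 and 16.5 FPKM in young and 13.3, 14.2 and 14.4 in old, a change of -0.12, and its groups overlapped as well. Rb1cc1 was the lowest, at 3.59 ± 0.31 FPKM in young and 3.41 ± 0.23 in old (SD, n = 3 per group). Its RNA has a processed pseudogene, Gm13961, with 95.6% identity over 1324 bases and 0 to 5 fragments per library.

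The promoters of Atg13 and Atg101 are shown because these binding partners had changes of opposite sign. The sequences run 5′ to 3′ on the gene's strand, from 250 bases before the RefSeq start to 50 bases into the transcript, on build GRCm38.p6. Capitals mark matches to any of the motifs searched, which are spelled out with their shares among all promoters further on.
Atg13, chr2:91710543-91710842, minus strand: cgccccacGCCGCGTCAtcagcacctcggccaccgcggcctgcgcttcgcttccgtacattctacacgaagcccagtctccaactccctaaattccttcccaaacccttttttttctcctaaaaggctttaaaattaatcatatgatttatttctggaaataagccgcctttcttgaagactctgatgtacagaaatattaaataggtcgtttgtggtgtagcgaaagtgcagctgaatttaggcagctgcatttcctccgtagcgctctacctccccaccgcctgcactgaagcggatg
Atg101, chr15:101284051-101284350, plus strand: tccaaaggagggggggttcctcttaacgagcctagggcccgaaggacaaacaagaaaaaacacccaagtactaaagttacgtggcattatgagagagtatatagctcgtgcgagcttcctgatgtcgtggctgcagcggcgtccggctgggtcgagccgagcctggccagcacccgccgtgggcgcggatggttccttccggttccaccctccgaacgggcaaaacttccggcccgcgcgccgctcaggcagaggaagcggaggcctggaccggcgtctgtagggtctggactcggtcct
The Atg13 window holds a match to the antioxidant response core near its upstream end, and the Atg101 window holds none of the motifs.

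The class III PI3-kinase complexes make PI3P, and their 7 genes had the narrowest range of changes among the role groups with more than 2 genes, from -0.07 to 0.11. Pik3c3 encodes the kinase VPS34 and Pik3r4 its regulatory subunit. Pik3c3 had 7.77, 7.54 and 7.49 FPKM in young and 7.21, 6.85 and 7.45 in old. Pik3r4 had 3.82, 3.92 and 3.87 FPKM in young and 4.13, 4.09 and 4.34 in old. The groups were separated downwards for Pik3c3 and upwards for Pik3r4, by changes of -0.07 (SE 0.061, limma adjusted p = 0.62) and 0.09 (SE 0.064, limma adjusted p = 0.563). The ratio of old to young mean FPKM was 0.943 for Pik3c3 and 1.08 for Pik3r4.

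Uvrag, which directs the kinase complex to endosomes and late steps, was the highest of the group, with 17.8, 15.9 and 17.8 FPKM in young and 18.5, 15.6 and 16.1 in old. Its old libraries spanned its young ones, with a change of -0.04. Becn1, the Beclin 1 scaffold, had 10.8 ± 0.557 and 10.3 ± 0.559 FPKM, and Atg14, which directs the complex to the forming autophagosome, had 5.94 ± 0.514 and 6.5 ± 0.313. Rubcn encodes Rubicon, which restrains autophagosome maturation and is needed for LC3-associated phagocytosis, and had 6.95 ± 0.685 and 6.96 ± 0.518 FPKM. Ambra1, which brings Beclin 1 to the ULK1 complex, had 9.47 ± 0.668 and 9.84 ± 0.607 FPKM. Exons of Becn1 overlap those of Cntd1 on the opposite strand over 43.9% of their length. The labels do not say whether strand was used in counting, so fragments of these genes may be mixed. The same limit holds for Gabarapl1 (28.3%, with 1700101I11Rik), Uvrag (17.6%, with Gm45187) and Sqstm1 (17.3%, with Mrnip). Other overlaps of members on the opposite strand covered at most 5.5%.

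Among the PI3P effectors and lipid transfer proteins, 3 of 5 genes had negative changes. Atg9a encodes a scramblase carried on the vesicles that seed the autophagosome, and lies on chromosome 1 (75180860 to 75192196). It had 4.59, 3.96 and 4.27 FPKM in young and 3.64, 3.67 and 3.36 in old. Each old library was below each young one, with a change of -0.21 (SE 0.076, limma unadjusted p = 0.0286, adjusted p = 0.278). For Atg9a, limma's unadjusted p was 0.0915 without old replicate 3, 0.0903 without young replicate 1 and 0.0611 without young replicate 3. Exons of the processed transcript Gm29253 cover 31.8% of those of Atg9a on the same strand, so the division of fragments between them is uncertain.

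Atg2a encodes a protein that moves lipids into the growing membrane and had the highest FPKM of these 5, with 12.8, 10.9 and 12.9 FPKM in young and 11.7, 9.8 and 10.9 in old. Its groups overlapped at a change of -0.16. Its paralogue Atg2b had 3.34 ± 0.41 and 3.32 ± 0.112 FPKM. The PI3P readers Wipi1 and Wipi2 had 3.16 ± 0.106 and 3.41 ± 0.555 FPKM and 6.99 ± 0.738 and 7.13 ± 0.392 FPKM, and WIPI2 is the one that recruits ATG16L1.

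The conjugation enzymes attach ATG12 to ATG5 and LC3 to lipid, and their 7 changes ranged from -0.12 to 0.23. Atg7 encodes the E1-like enzyme that activates both ATG12 and LC3 (chromosome 6, 114643097 to 114860614). It had 8.12, 8.53 and 8.38 FPKM in young and 9.54, 9.8 and 9.98 in old. The groups were separate with little spread within each, and the change was 0.21 (SE 0.058, limma unadjusted p = 0.00918, adjusted p = 0.207). Among the alternative settings its change ranged from 0.15 to 0.23, and its adjusted p from 0.109 to 0.472.

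Atg12, the ubiquitin-like protein, was the highest of the group, with 32.2, 25.7 and 25.7 FPKM in young and 31.9, 31.3 and 35.2 in old. Young replicate 1 lay among the old libraries, and the other young libraries lay below all of them. The change was 0.23 (SE 0.103, limma unadjusted p = 0.0595, adjusted p = 0.351). Leaving out 1 library gave changes from 0.18 without young replicate 2, young replicate 3 or old replicate 3 (limma unadjusted p from 0.169 to 0.178) to 0.34 without young replicate 1 (limma unadjusted p = 0.00481). The E2-like enzyme genes were Atg3, for LC3, with 18.9 ± 0.503 and 20.3 ± 1.37 FPKM, and Atg10, for ATG12, with 5.04 ± 0.443 and 4.56 ± 0.642. Atg5 had 17.2 ± 0.28 and 16.7 ± 1.56 FPKM, and Atg16l1, the partner that places the ATG12-ATG5 conjugate on membranes, had 3.6 ± 0.124 and 3.34 ± 0.371. Atg4b, the protease that trims LC3 before conjugation and removes it later, had 3.36 ± 0.0756 and 3.24 ± 0.116 FPKM. The groups of these 5 genes overlapped.

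The LC3 and GABARAP proteins are made with a short tail that ATG4 cuts off behind a glycine, and this glycine is then joined to phosphatidylethanolamine in the membrane. The ends of 4 of the coding sequences, from the GENCODE M21 transcripts, are shown because the genes share this site and differ in the codons around it. Capitals mark the last glycine codon before the stop codon, which is codon 120 in Map1lc3a and codon 116 in the 3 GABARAP genes.
Map1lc3a: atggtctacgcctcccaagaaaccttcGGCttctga
Gabarap: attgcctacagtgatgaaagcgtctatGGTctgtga
Gabarapl1: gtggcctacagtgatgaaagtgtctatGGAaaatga
Gabarapl2: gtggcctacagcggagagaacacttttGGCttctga
Each of these 4 genes has 1 codon between the glycine and the stop. The end of Map1lc3b is not shown here, so this length is not given for the whole family. Coding identity was 74.1% between the LC3 genes and 74.9% between Gabarap and Gabarapl1, and 51.4% to 55.3% between an LC3 and a GABARAP gene. The longest run of identical bases in any pair of coding sequences was 17.

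None of the 5 family members separated the groups, and their changes lay between -0.19 and 0.11. Gabarap held 67.3% to 69.1% of the family's summed FPKM in young and 69.0% to 71.8% in old. Gabarapl1 had 49.7, 43 and 46.4 FPKM in young and 44.5, 42.3 and 40.3 in old, a change of -0.13 with overlapping groups. Map1lc3b, which encodes the common marker protein of autophagosomes, had 29.9, 30 and 33.1 FPKM in young and 30.2, 32 and 32.4 in old. Its change was 0.03 with a 95% limma interval from -0.14 to 0.19. Map1lc3a had 11.2, 14.1 and 16.4 FPKM in young and 12.7, 10.5 and 12.7 in old, the widest spread of the family relative to its level. Gabarapl2 had 19.4 ± 0.606 FPKM in young and 20.7 ± 1.35 in old.

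The order of levels in the family depended on the gene length used. The deposited FPKM correspond to the length of all annotated exons together, which for Map1lc3b is 7517 bases against 2532 bases for its principal transcript. On the length of the principal transcript, Map1lc3b had a level of 92.8 instead of 31.3 and passed Gabarapl1, which had 49.1 instead of 44.4. Gabarap remained the highest on both lengths, at 249.7 and 340.8, and Map1lc3a the lowest, at 12.9 and 13.7. Among the other roles, the highest gene also differed on this length for the PI3P effectors, with Wipi2 at 38.02 and Atg2a at 13.9, and for the ULK1 complex, with Atg101 at 23.7 and Ulk2 at 21.3. The lengths differed most for Wipi2, whose exons are 5.38 times as long as its transcript, Stx17 (3.88 times), Atg16l1 (3.08 times) and Tax1bp1 (3.04 times). The length is the same in every library, so it leaves the ratio of old to young FPKM as it is, but it sets a gene's level against the pseudocount and so the change on the log2(FPKM + 1) scale.

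**Figure D4:**
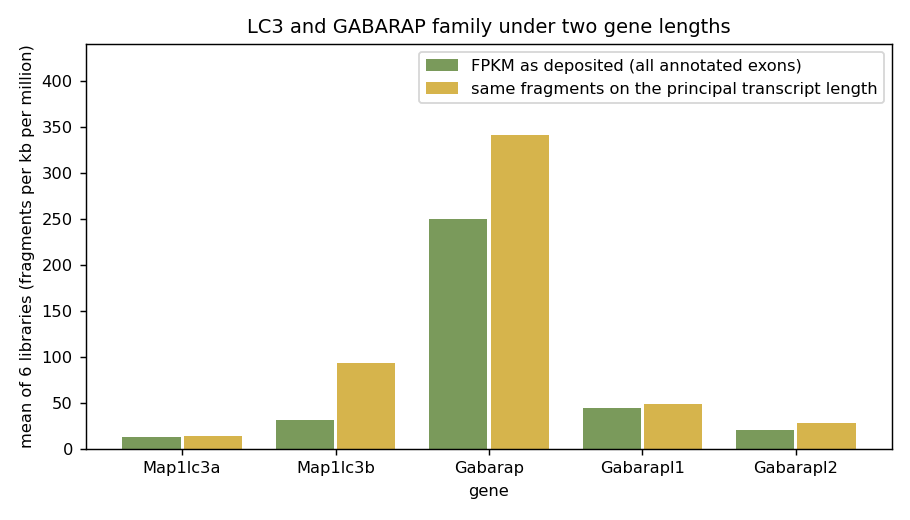
Mean level of the LC3 and GABARAP genes over the 6 libraries, as deposited FPKM and as the same fragments divided by the length of the principal transcript. Gabarap is highest on both scales, and Map1lc3b moves from 31.3 to 92.8 and from below to above Gabarapl1.

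The level of Map1lc3b is uncertain, because its RNA has 4 near-identical processed pseudogenes and reads of such copies can be assigned to either. Gm6055 is 99.7% identical over 378 bases and was listed at 48.6, 49.1 and 51.4 FPKM in young and 44.2, 45.3 and 57.7 in old. Its 295 to 400 fragments per library were 6.65% to 8.22% of the sum with Map1lc3b, and the groups overlapped. The other 3, Gm6054, Gm5612 and Gm12727, had at most 4 fragments per library. Gabarapl2 has 3 such copies, of which Gm3724 had 1 to 7 fragments per library.

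The cargo receptors held the largest change of the machinery. Optn encodes optineurin, a receptor for ubiquitin-coated bacteria and mitochondria, and lies on chromosome 2 (5020642 to 5064051). It had 1.47, 1.38 and 1.08 FPKM in young and 2.35, 2.09 and 2.06 in old, resting on 69 to 158 fragments per library. Each old library was above each young one, the means were 1.31 ± 0.204 and 2.17 ± 0.162 FPKM, and their ratio was 1.66. The change was 0.46 (SE 0.106, limma unadjusted p = 0.00342, adjusted p = 0.172), the smallest p of the 36 genes. With a pseudocount of 0.1 FPKM, which compresses low values less, the change was 0.70 and limma's adjusted p was 0.175.

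Tax1bp1 encodes a receptor that clears ubiquitin-coated aggregates and restrains NF-kB signalling (chromosome 6, 52713729 to 52766780). It had 19.8, 17.5 and 17.6 FPKM in young and 23.2, 20.4 and 22 in old. The groups did not overlap, and young replicate 1 lay nearest to the old libraries. The change was 0.24 (SE 0.078, limma unadjusted p = 0.0167, adjusted p = 0.237), and limma's unadjusted p ranged from 0.0046 to 0.0734 over the alternative settings.

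The other receptors had overlapping groups. Sqstm1, whose values are given above, had a change of 0.09 (SE 0.132, limma adjusted p = 0.78) and the change went to -0.04 without old replicate 1, its highest library. Nbr1, a p62-like receptor that helps p62 to gather cargo, had 23.5 ± 2.22 FPKM in young and 22.8 ± 0.924 in old. Calcoco1, a receptor for endoplasmic reticulum and Golgi membranes, had 8.85, 9.27 and 10.4 FPKM in young and 7.68, 7.94 and 8.93 in old, with a change of -0.19 (limma unadjusted p = 0.057). Sqstm1 thus had 16.8 to 18.8 times the FPKM of Nbr1 in young and 17.0 to 24.1 times in old.

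**Figure D5:**
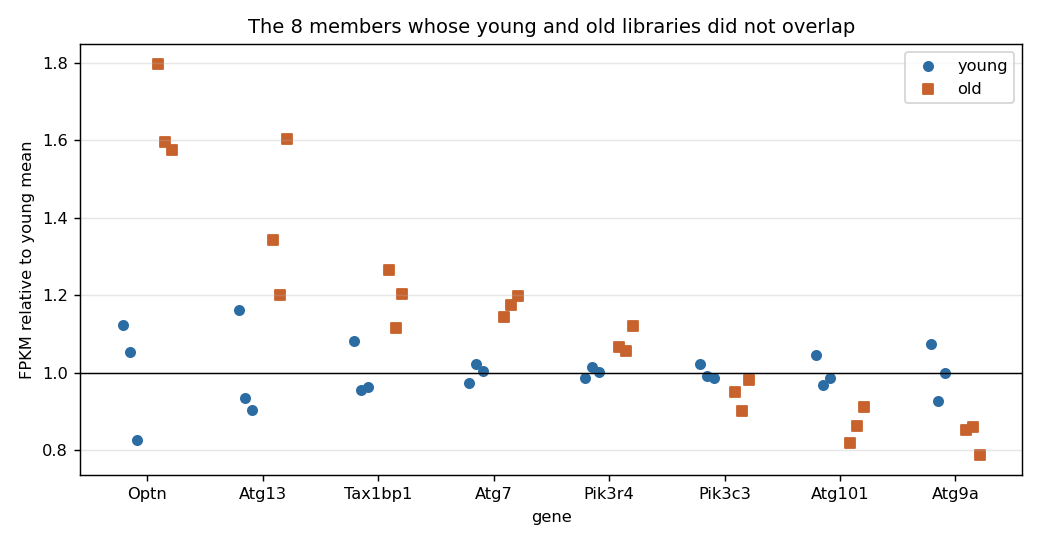
FPKM relative to the young mean for the 8 genes whose young (circles) and old (squares) libraries did not overlap, each point being 1 library. The old libraries of Optn, Atg13, Tax1bp1, Atg7 and Pik3r4 lie above the young ones, and those of Pik3c3, Atg101 and Atg9a lie below.

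For fusion with the lysosome, Stx17 encodes the SNARE protein of the closed autophagosome and Epg5 a tether that helps SNARE assembly. Stx17 had 4.51, 5.62 and 6.38 FPKM in young and 4.43, 4.65 and 4.64 in old. Young replicate 1 lay among the old libraries, and the change was -0.21 (SE 0.111, limma adjusted p = 0.425), and limma's unadjusted p was 0.097. Leaving out 1 library gave changes from -0.33 without young replicate 1 (limma unadjusted p = 0.00734) to -0.12 without young replicate 3 (limma unadjusted p = 0.29). Epg5 had 3.3, 3.83 and 4.1 FPKM in young and 3.85, 3.88 and 3.82 in old, so that the old libraries lay within the young range.

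Promoters were available for 29 of the 36 genes in RefSeq on GRCm38.p6 and not for Atg12, Atg16l1, Becn1, Epg5, Map1lc3a, Pik3c3 and Rb1cc1. Both strands were searched for CACGTG, the E-box core that factors of the TFEB family and others bind, and for the CLEAR palindrome, in which GT precedes and AC follows that core. The 29 genes had 32 windows, since some have several starts, and shares are of windows. CACGTG was in 5 of the 32 (15.6%), those of Atg3, Atg5, Atg7, Atg14 and Rubcn, and in 7.15% of all 32851 windows. The CLEAR palindrome was in none of the 32 and in 0.326% of all. The antioxidant response core TGACNNNGC was in 4 of the 32 (12.5%), those of Atg13, Map1lc3b, Tax1bp1 and Ulk2, against 12.4%. The FoxO core TGTTTAC was in none against 3.65%, and the interferon-regulatory factor pair, GAAA repeated behind any 2 bases, was in 1, of Nbr1 (3.12%), against 3.44%. The matching windows of Atg7, Rubcn and Atg14 belong to RefSeq starts that lie 27999, 9400 and 2215 bases from the outermost GENCODE start of the gene. Those of Tax1bp1 and Nbr1 belong to RefSeq starts 436 and 505 bases away. Tax1bp1, Nbr1 and Rubcn each have another window, whose start lies 0 (Tax1bp1), 42 (Nbr1) or 37 (Rubcn) bases away, without a match. Atg7 and Atg14 have no other window.

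Atg3 is shown because its window, of all members, holds CACGTG at 2 places, and Optn because it had the largest change. Capitals again mark matches to any of the motifs.
Atg3, chr16:45158579-45158878, plus strand: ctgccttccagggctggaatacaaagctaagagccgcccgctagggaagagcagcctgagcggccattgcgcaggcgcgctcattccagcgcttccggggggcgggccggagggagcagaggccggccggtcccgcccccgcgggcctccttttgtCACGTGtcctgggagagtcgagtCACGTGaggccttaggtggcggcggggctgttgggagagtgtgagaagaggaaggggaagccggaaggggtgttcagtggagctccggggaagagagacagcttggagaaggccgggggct
Optn, chr2:5064068-5064367, minus strand: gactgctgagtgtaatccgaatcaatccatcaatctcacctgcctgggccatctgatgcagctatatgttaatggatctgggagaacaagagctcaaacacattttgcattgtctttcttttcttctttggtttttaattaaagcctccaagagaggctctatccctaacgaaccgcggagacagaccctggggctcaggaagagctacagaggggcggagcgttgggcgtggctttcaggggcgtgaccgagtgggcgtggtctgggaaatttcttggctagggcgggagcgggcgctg
The Optn window holds none of the motifs. The genes with CACGTG had changes of 0.10 (Atg3), -0.04 (Atg5), 0.21 (Atg7), 0.11 (Atg14) and 0.00 (Rubcn), and none passed limma's adjusted threshold.

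A companion list of 51 further autophagy genes gave the context, and 47 of them were tested, since the others, among them Atg9b, Ccpg1 and Nipsnap1, had means below 1 FPKM. None passed limma's adjusted threshold, with a smallest adjusted p of 0.199, and limma voom called none either. At a limma unadjusted p under 0.05 there were 5 with higher values in old (10.6%, against 8.84% of all tested genes) and 0 with lower values (against 6.18%). The median change was 0.04, and 33 changes were positive and 14 negative, against 5900 and 5208 over all tested genes. The 13 tethering and SNARE factors had 10 positive and 3 negative changes with a median of 0.08. They summed to 486 to 503 FPKM in young and 528 to 554 in old, and to 299 to 311 and 313 to 323 without Rab7, the highest of them. Such sums depend on the scaling of the libraries. Rescaling to TPM moved the median change of all tested genes from 0.0118 to -0.0399. The sums were not rescaled, and the part of scaling in them was not tested.

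Rab7, the GTPase of late endosomes that draws autophagosomes to lysosomes, had 191.8, 187.9 and 175.3 FPKM in young and 214.3, 221.9 and 230.4 in old. Each old library was above each young one, with a change of 0.26 (SE 0.071, limma unadjusted p = 0.00767, adjusted p = 0.199). Plekhm1, an adaptor that binds RAB7 and LC3, had 18 ± 1.46 FPKM in young and 21 ± 1.41 in old, a change of 0.22. Wdfy3, the scaffold ALFY of aggregate clearance, had 17.7 ± 1.93 and 21.9 ± 1.88 FPKM (0.30), and Tollip, an endosomal adaptor that binds ubiquitin, had 21.6 ± 2.09 and 26.1 ± 2.45 (0.26). Trp53inp2, which helps to recruit LC3, had 17.1 ± 1.41 and 21.2 ± 1.87 FPKM (0.29). The groups overlapped for Tollip and not for the other 4. Of the 47 tested companion genes, 10 had groups that did not overlap (21.3%, against 20.9% of all tested genes). Of these, 7 were higher in old (14.9%, against 12.3%) and 3 were lower (6.38%, against 8.59%), namely Atg16l2, Foxo1 and Zkscan3. Among mitophagy genes, Fkbp8 was the highest, at a mean of 39.5 FPKM, and the 7 tested changes lay between -0.12 and 0.17. The transcription factor genes Tfeb, Tfe3, Mitf, Foxo1, Foxo3 and Zkscan3 had changes from -0.17 to 0.14.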

How the data were processed

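RNA from 6 libraries of sorted macrophages was measured by sequencing, 3 from young and 3 from old mice. The authors deposited FPKM per gene, on genome build GRCm38.p6 according to the submitters' processing notes. No aligner, counter, annotation or strand setting is named in the labels or the file header. Identifiers were matched to GENCODE M21 (54495 of 54966 features). FPKM multiplied by exon-union length gave whole multiples of 1 fragment (tolerance 0.02, multiples below 200) for 97.5% to 97.6% of values, which gave the recovered fragments. Their totals were 16543939 to 19400929 per library.

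Old was compared with young on the log2(FPKM + 1) scale with limma (version 3.58.1, R version 4.3.3) and its trended moderation. The 11108 genes averaging 1 FPKM or more were tested, and p-values were adjusted by Benjamini-Hochberg over all of them. The fit was tested on simulated data. An exact permutation test with 3 libraries per group cannot go below p = 0.1 and was not used. Marker lists, members and companion genes were chosen with earlier results of these data known. All 36 members are named. Values in every library are given for members whose groups did not overlap or whose unadjusted p was under 0.05 and for the highest gene of each role, and companion genes are named at an unadjusted p under 0.05. Other names and values, including those in the additional observations, were chosen after their values were seen. Near-identical copies were sought with blastn 2.17.0 (identity of at least 95% over at least 100 bases, pseudogenes only). Promoter sequences came from RefSeq and coding sequences from GENCODE M21. Python 3.11.15 with pandas 2.3.3, numpy 2.4.6, Biopython 1.88 and matplotlib 3.10.9 was used. Alternatives were other pseudocounts, filters, scalings, moderation and weights, voom, the replicate block and leaving out each library.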

Additional observations from a re-analysis of the deposited data

How the results depend on the processing

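No member and no companion gene passed the adjusted threshold under any of the 17 alternative settings run, and the median change of the members stayed between -0.051 and 0.037. The 15 members followed through the settings kept their direction in 250 of 252 values. The exceptions were Sqstm1 and Uvrag, whose changes ranged from -0.04 to 0.20 and from -0.11 to 0.01 when 1 library was left out, and the cause was not tested. Over all genes, 4 calls became 50 with array weights and 41 with limma voom on recovered fragments, and 0 with a pseudocount of 0.1 FPKM, without the filter, with a mean of at least 5 FPKM and with the replicate block, and the cause was not tested. When 1 library was left out, they ranged from 0 to 15, the latter without young replicate 1. Libraries with the same replicate number deviated together only weakly (correlations of 0.032 to 0.054), although each correlated best with its own number. With the number as a block, 4 members had higher and 3 lower values at an unadjusted p under 0.05, against 4 and 2. These were 11.1% and 8.33% of the members, against 8.57% and 6.36% of all tested genes with the block. With array weights 7 were higher (19.4%, against 12.7% of all tested genes), and after rescaling to TPM 5 were lower (13.9%, against 10.6%). Only 1 was lower with a mean of at least 5 FPKM (3.85% of 26 members, against 6.26%). The same number was lower without young replicate 3 (2.78%, against 4.02%) and without old replicate 1 (2.78%, against 5.4%). Members whose groups did not overlap numbered 10 or 11 under other scalings (27.8% to 30.6%, against 20.3% to 21.8% of all tested genes) and 5 of the 26 with a mean of at least 5 FPKM (19.2%, against 23.7%). With 1 library left out they numbered 9 to 17 (25% to 47.2%, against 28% to 37.9%).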

Other observations

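Within the ULK1 complex, 5 of the 10 ratios between genes in the same library separated the groups. Among the cargo receptors 6 of 10 did so, among the PI3P effectors 3 of 10, and in the LC3 and GABARAP family 0 of 10. The counts were 4 of 21 for the class III PI3-kinase complexes, 5 of 21 for conjugation and 1 of 1 for fusion. The ratio of Ulk2 to Ulk1 was 1.26, 1.28 and 1.26 in the young libraries and 1.53, 1.57 and 1.51 in the old, although each gene alone overlapped between the groups. The ratio of Atg13 to Atg101 was 0.674, 0.587 and 0.555 in young and 0.995, 0.845 and 1.07 in old. A ratio within a library does not depend on scaling, and it does not say which gene of the pair differed. These pairs were chosen after their values were seen, from 83 pairs of members with the same role, of which 24 (28.9%) had groups that did not overlap, against 20.3% of all pairs of tested genes, and no test was made.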
